A study of Mus musculus with 8 samples.

Results

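The NADPH oxidase subunits described here are Nox1, Nox4, Cybb, Cyba, Ncf1, Ncf4, Rac1 and Rac2, which are 8 of the 48607 loci in a gene table from RNA sequencing of whole mouse aortas. They were chosen by name, and where several loci carried a name the locus with the most reads was taken. NADPH oxidases are membrane enzymes that pass electrons from NADPH to oxygen and so make superoxide or hydrogen peroxide. In phagocytes the catalytic subunit gp91phox (Cybb) sits in the membrane with its partner p22phox (Cyba), and it is switched on when cytosolic subunits, among them p47phox (Ncf1) and p40phox (Ncf4), and a Rac GTPase join it. In the vessel wall, NOX4 also pairs with p22phox but needs no cytosolic partner, and it is the form that smooth muscle and endothelial cells are best known for, with NOX1 as an inducible form of smooth muscle.

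The study compared ApoE-/- mice, which lack apolipoprotein E and form atherosclerotic plaques, with NPRC-/-ApoE-/- mice, which in addition lack natriuretic peptide receptor C throughout the body. All mice of both groups therefore carried the ApoE deletion, and all were fed a Western diet before the aortas were taken. The NPRC-/- line was made on a C57BL/6 background with CRISPR as a frameshift in the first exon of Npr3. The methods state that ApoE-/- males aged 8 weeks were bought and that ApoE-/- mice were crossed with this line. They describe the compared groups as littermates. The age and sex of each sequenced mouse were not given in the sources used here. The methods describe 5 aortas per group, and the libraries analysed here were 5 titled ApoE-/- and 3 titled NPRC-/-ApoE-/-.

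For 4 of the 8 libraries the title and the genotype entry named different genotypes. The libraries titled ApoE-/- 4 and 5 were entered as Nprc-/-Apoe-/-, and those titled NPRC-/-ApoE-/- 1 and 2 were entered as Apoe-/-, so both labels gave 5 libraries against 3 but not the same ones. Every comparison was therefore made by title and again by genotype entry. Npr3, the targeted gene, was at 1.69, 0.93, 0.62, 1.01 and 1.67 FPKM in ApoE-/- 1 to 5 and at 1.18, 1.39 and 1.13 FPKM in NPRC-/-ApoE-/- 1 to 3, where FPKM is mapped fragments scaled by transcript length and library depth. These values overlapped between the groups of either label (log2 fold change 0.10 by title and 0.16 by genotype entry), so they settled neither label, and a frameshift can leave the mRNA in place. The total count per library lay between 62969165 and 86693276. The defining markers of the vessel wall, Acta2 and Myh11 of smooth muscle, were present in all libraries, with lowest values of 849 FPKM and 108.8 FPKM, and no marker of any cell type list used here was at 0 in every library.

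The 8 genes lay at 8 places of the mouse genome, given here in build GRCm38 as in the table. Cybb (ENSMUSG00000015340) spanned chromosome X from 9435252 to 9487771 and Cyba (ENSMUSG00000006519) chromosome 8 from 122424776 to 122432930, both on the minus strand. Ncf1 (ENSMUSG00000015950) spanned chromosome 5 from 134220053 to 134229625, also on the minus strand, and Rac1 (ENSMUSG00000001847) on the same strand and chromosome from 143503634 to 143528036. Ncf4 (ENSMUSG00000071715) on the plus strand from 78244147 to 78262580 and Rac2 (ENSMUSG00000033220) on the minus strand from 78559167 to 78572783 shared chromosome 15. Nox4 (ENSMUSG00000030562) occupied chromosome 7 from 87246096 to 87398710 on the plus strand. Nox1 (ENSMUSG00000031257) was the exception, since its minus-strand locus, chromosome X from 134086421 to 134276982, also carried the names Xkrx and Trmt2b, and reads of the 3 genes could not be separated.

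The RefSeq table of promoters (GRCm38.p6) held 5 of the 8 genes. The 250 bases before the start of 4 of them are printed because Cybb, Ncf1 and Cyba share a pattern over the libraries that Nox4 does not follow. The start is that of the RefSeq entry, and the windows of Cybb and Nox4 lie inside the loci given above. Capitals mark matches to 3 short motifs, searched on both strands and not overlapping each other here. They are AGGAA, which holds the core GGAA that ETS factors such as PU.1 bind, the box CCAAT of NF-Y, and GGGCGG, the GC box of Sp1. The search was for AGGAA only, so a window without it can still hold GGAA on either strand, as those of Ncf1 and Cyba do.
Cybb, chrX:9469325-9469574, minus strand: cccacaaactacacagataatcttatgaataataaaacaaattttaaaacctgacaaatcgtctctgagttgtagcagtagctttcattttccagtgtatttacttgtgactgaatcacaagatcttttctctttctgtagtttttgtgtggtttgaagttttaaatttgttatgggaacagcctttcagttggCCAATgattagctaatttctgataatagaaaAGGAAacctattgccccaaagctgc
Ncf1, chr5:134229626-134229875, minus strand: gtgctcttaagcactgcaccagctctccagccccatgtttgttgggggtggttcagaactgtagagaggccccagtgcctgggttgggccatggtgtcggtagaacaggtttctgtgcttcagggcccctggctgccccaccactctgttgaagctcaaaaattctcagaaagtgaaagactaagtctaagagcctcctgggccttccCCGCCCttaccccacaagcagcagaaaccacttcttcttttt
Cyba, chr8:122432941-122433190, minus strand: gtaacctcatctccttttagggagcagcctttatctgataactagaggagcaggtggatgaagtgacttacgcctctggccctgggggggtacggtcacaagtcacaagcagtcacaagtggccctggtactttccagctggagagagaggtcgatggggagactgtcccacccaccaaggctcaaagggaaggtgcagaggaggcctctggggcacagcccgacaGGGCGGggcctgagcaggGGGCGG
Nox4, chr7:87246399-87246648, plus strand: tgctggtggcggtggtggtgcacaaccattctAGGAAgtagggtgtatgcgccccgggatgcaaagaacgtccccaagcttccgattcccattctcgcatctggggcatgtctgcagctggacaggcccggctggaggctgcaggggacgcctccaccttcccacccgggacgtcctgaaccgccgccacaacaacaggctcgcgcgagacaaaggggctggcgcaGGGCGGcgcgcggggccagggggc
The Cybb window held AGGAA from 25 to 21 bases and CCAAT from 56 to 52 bases before the start. The Ncf1 window held GGGCGG on the other strand, from 42 to 37 bases before the start, and the Cyba window held it at 24 to 19 and at 6 to 1 bases. The Nox4 window held AGGAA from 218 to 214 bases and GGGCGG from 24 to 19 bases before the start. AGGAA was present in 60.3% of the 32817 windows of this length in the table, CCAAT in 33.8% and GGGCGG in 32.7%. TATAAA, the TATA box, was present in 12.4% of all windows and in none of these 4. The Cybb window had a GC content of 34.0%, lower than all but 3.88% of windows, whereas Ncf1 had 54.4%, Cyba 60.0% and Nox4 67.2%, against a median of 52.4% over all windows.

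Grouped by title, 6 of the 8 subunits had a lower fitted level and 2 a higher one in NPRC-/-ApoE-/- aortas. Over all 20506 loci tested, 10434 were lower and 10072 higher. Cybb and Rac2, the catalytic and GTPase subunits of the phagocyte enzyme, were lower at an unadjusted p under 0.05 in edgeR's quasi-likelihood test, which called 7.13% of the 20506 loci tested lower at the same threshold. Both also had a fold below 0.5, and 2.39% of all loci tested met that fold and that p together. None of the 8 was higher at that threshold, which 6.51% of loci passed, and none passed after Benjamini-Hochberg adjustment over all loci (0 loci did in edgeR, where the smallest adjusted p was 0.0525 and 2797 loci had an unadjusted p under 0.05, while 644 loci did in DESeq2). Grouped by genotype entry, 0 of the 8 had an unadjusted p under 0.05 in edgeR, against 1.31% of loci in either direction, and all had an adjusted p of 1. The titled groups overlapped for all 8 subunits, while they did not overlap for 7.25% of loci. In whole aorta, fewer cells of a type and less mRNA in each cell cannot be told apart.

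Cybb was at 15.54, 17.85, 24.55, 26.34 and 11.11 FPKM in ApoE-/- 1 to 5 and at 15.95, 6.09 and 5.24 FPKM in NPRC-/-ApoE-/- 1 to 3. NPRC-/-ApoE-/- 2 and 3 lay below every ApoE-/- library, and NPRC-/-ApoE-/- 1 lay among them, above ApoE-/- 1 and 5. The log2 fold change was -1.09 (SE 0.44, edgeR adjusted p = 0.334), and by genotype entry it was -0.14 (SE 0.55). Leaving out either of NPRC-/-ApoE-/- 2 and 3 ended the call, with values of -0.84 and -0.81, as did leaving out ApoE-/- 3 or 4, with -0.95 and -0.92.

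Cyba, whose protein steadies both NOX2 and NOX4 in the membrane, was at 42.95, 55.34, 93.59, 89.20 and 30.64 FPKM in ApoE-/- 1 to 5 and at 48.90, 21.84 and 21.32 FPKM in NPRC-/-ApoE-/- 1 to 3. The same pair of NPRC-/-ApoE-/- libraries was lowest and ApoE-/- 3 and 4 were highest. The log2 fold change of -1.04 (SE 0.46, edgeR adjusted p = 0.367) did not pass the unadjusted threshold, and it was -0.13 by genotype entry.

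The cytosolic subunits p47phox and p40phox bring the enzyme together at the membrane. Ncf1 was at 5.56, 7.58, 8.85, 9.01 and 3.58 FPKM in ApoE-/- 1 to 5 and at 6.56, 2.55 and 2.09 FPKM in NPRC-/-ApoE-/- 1 to 3. Its log2 fold change was -0.90 (SE 0.45, edgeR adjusted p = 0.407), with the lowest 2 libraries again NPRC-/-ApoE-/- 2 and 3. Ncf4 was at 2.99, 4.35, 5.61, 6.28 and 2.17 FPKM in ApoE-/- 1 to 5 and at 3.95, 0.85 and 1.32 FPKM in NPRC-/-ApoE-/- 1 to 3. It had the widest range of the 8 subunits, 7.39-fold between its highest and lowest library, and its log2 fold change was -1.08 (SE 0.55, edgeR adjusted p = 0.415). By genotype entry the values were -0.31 for Ncf1 and -0.09 for Ncf4.

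Rac2, the Rac GTPase of blood cells, was at 6.22, 10.56, 10.54, 9.11 and 4.91 FPKM in ApoE-/- 1 to 5 and at 6.48, 2.58 and 2.89 FPKM in NPRC-/-ApoE-/- 1 to 3. NPRC-/-ApoE-/- 2 and 3 were below all ApoE-/- libraries and NPRC-/-ApoE-/- 1 was above ApoE-/- 1 and 5. The log2 fold change was -1.06 (SE 0.39, edgeR adjusted p = 0.316), and -0.34 by genotype entry. The call was lost without NPRC-/-ApoE-/- 2, at -0.80, and without NPRC-/-ApoE-/- 3, at -0.88.

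Rac1, the Rac GTPase that nearly all cells make, followed another order. It was at 10.70, 13.49, 35.57, 38.46 and 10.85 FPKM in ApoE-/- 1 to 5 and at 12.61, 25.78 and 10.26 FPKM in NPRC-/-ApoE-/- 1 to 3. ApoE-/- 3 and 4 and NPRC-/-ApoE-/- 2 stood apart from the other 5 libraries, with a 1.91-fold step between 13.49 and 25.78 FPKM and nothing between, which was noticed after the values were seen. The log2 fold change was -0.46 (SE 0.56, edgeR adjusted p = 0.742) by title and 0.05 by genotype entry. The Rac1 locus overlaps 2 loci named Daglb on the other strand, by 3076 and 24080 bases. Over their full lengths these loci held 42.4% and 14.7% as many reads as Rac1. The first Daglb locus was at 3.76, 5.06, 5.38, 6.31 and 3.31 FPKM in ApoE-/- 1 to 5 and 3.79, 2.72 and 2.39 FPKM in NPRC-/-ApoE-/- 1 to 3. The second was at 3.36 FPKM in ApoE-/- 2 and at 1.74 to 2.06 FPKM in the others, with 1.95 FPKM in NPRC-/-ApoE-/- 2. The methods describe a library preparation in which the second cDNA strand was labelled with uracil and treated with the enzyme UDG before PCR. Whether the counting used strand is not given in the sources used here. Other subunits also overlapped loci on the other strand. Cyba lay wholly inside a locus named Usp10, Gm20388 and Galnt2, whose reads over its full length came to 328% of Cyba's. Gtf2ird2 overlapped Ncf1 by 4303 bases, and a locus named Cstf2 and Mir3112 overlapped that of Nox1 by 399 bases. Over their full lengths these held 20.8% and 68.8% as many reads as the subunit. How far such reads entered the subunit counts was not tested.

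Nox4 was at 9.73, 5.38, 6.30, 6.55 and 10.09 FPKM in ApoE-/- 1 to 5 and at 7.61, 12.98 and 12.62 FPKM in NPRC-/-ApoE-/- 1 to 3. Here NPRC-/-ApoE-/- 2 and 3 were above every ApoE-/- library, and NPRC-/-ApoE-/- 1 lay among them. The log2 fold change was 0.58 (SE 0.26, edgeR adjusted p = 0.373) by title and 0.25 by genotype entry. The length that counts and FPKM imply for this locus was 96.3 kb, 24.6 times that of the longest annotated Nox4 transcript (3.92 kb) and longer than all annotated Nox4 exons joined (8.47 kb). Most of the length implied for Nox4 therefore lay outside annotated exons. A locus named Nox4 on the minus strand inside it, from 87247932 to 87262662, held 5.42% as many reads and had a log2 fold change of -0.02. Its 14731 bases had an implied length of 17.44 to 18.01 kb. Implied lengths can thus run long, and 96.3 kb is approximate. Another locus of that name, from 87399551 to 87409442, was at 0.75, 0.43, 0.29, 0.51 and 0.80 FPKM in ApoE-/- 1 to 5. In NPRC-/-ApoE-/- 1 to 3 it was at 0.55, 1.16 and 1.57 FPKM, with NPRC-/-ApoE-/- 2 and 3 highest, as for Nox4. A further one, from 87267280 to 87278800 on the minus strand, was at 0.61 FPKM or less.

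The locus of Nox1 varied least, between 1.76 FPKM in ApoE-/- 4 and 2.28 FPKM in NPRC-/-ApoE-/- 1. It averaged 1.91 ± 0.175 FPKM (SD, n = 5) in ApoE-/- and 2.06 ± 0.231 FPKM (SD, n = 3) in NPRC-/-ApoE-/- aortas, and the ranges overlapped. The log2 fold change was 0.13 by title and -0.14 by genotype entry, and it describes Nox1, Xkrx and Trmt2b jointly.

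**Figure D1:**
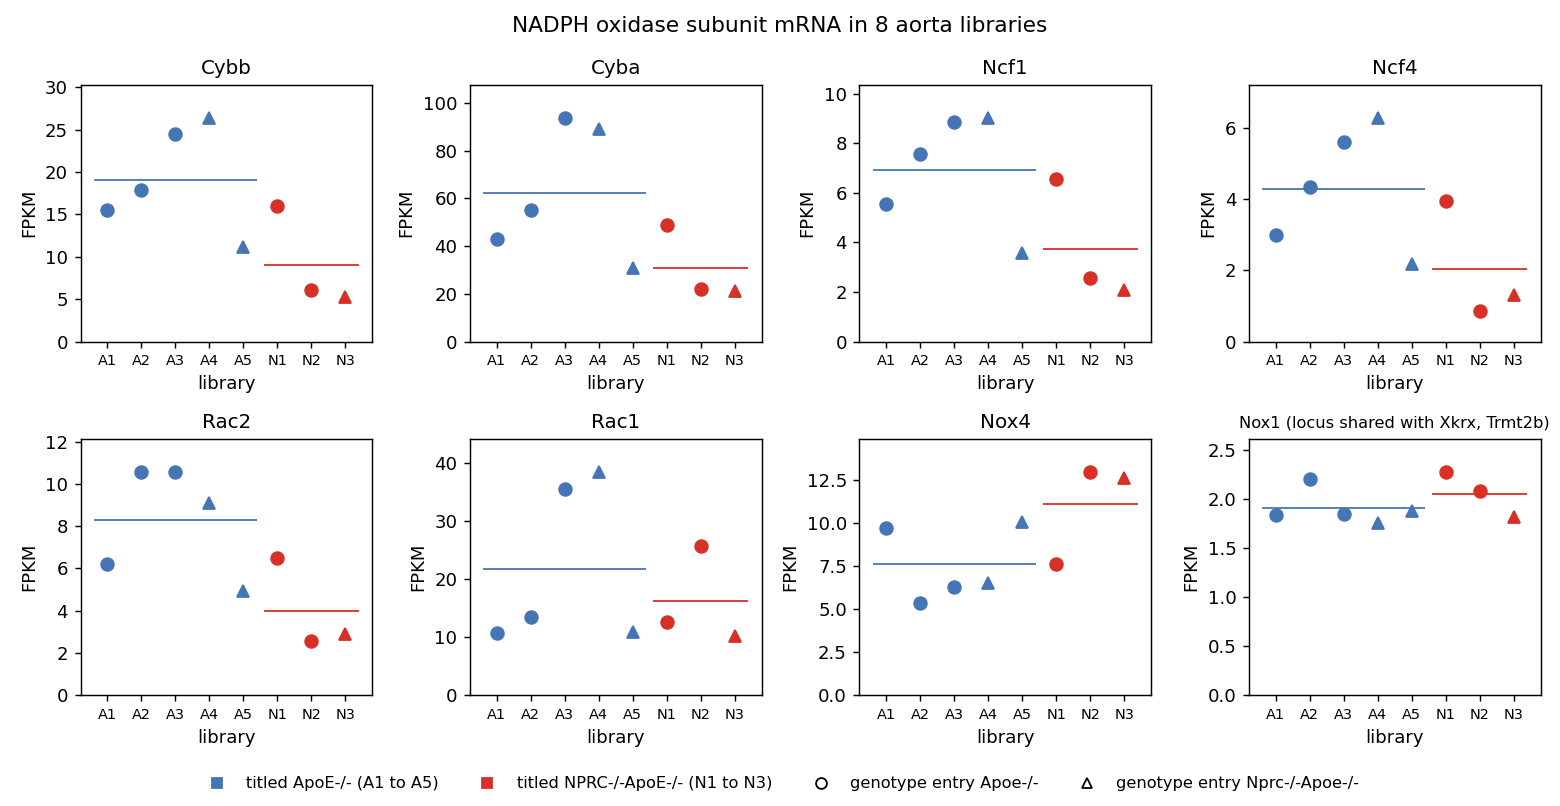
FPKM (vertical axes, from 0) of the 8 subunits in each library (horizontal axes). Colour gives the title, shape the genotype entry, and lines the mean of each titled group. N2 and N3 are the lowest libraries for Cybb, Cyba, Ncf1, Ncf4 and Rac2 and the highest for Nox4, while N1 lies within the range of the ApoE-/- libraries for all but Nox1.

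Tested one value at a time, the difference of mean log2 FPKM between the titled groups had a two-sided exact permutation p of 0.107 for Cybb, Cyba, Ncf1, Ncf4 and Rac2, 0.143 for Nox4, 0.393 for Nox1 and 0.5 for Rac1. With 5 libraries against 3 the smallest p this test can give is 0.0357. Other count and log-scale models called more subunits. DESeq2, which gave an unadjusted p under 0.05 to 9.02% of loci as lower and 7.69% as higher, called 6 of the 8, with Cyba, Ncf1 and Ncf4 joining Cybb and Rac2 as lower and Nox4 as higher. Limma on log2(FPKM + 1), which called 8.64% of loci lower, called the same 5 phagocyte subunits lower and did not call Nox4. None of the 8 passed after adjustment in either model.

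**Figure D2:**
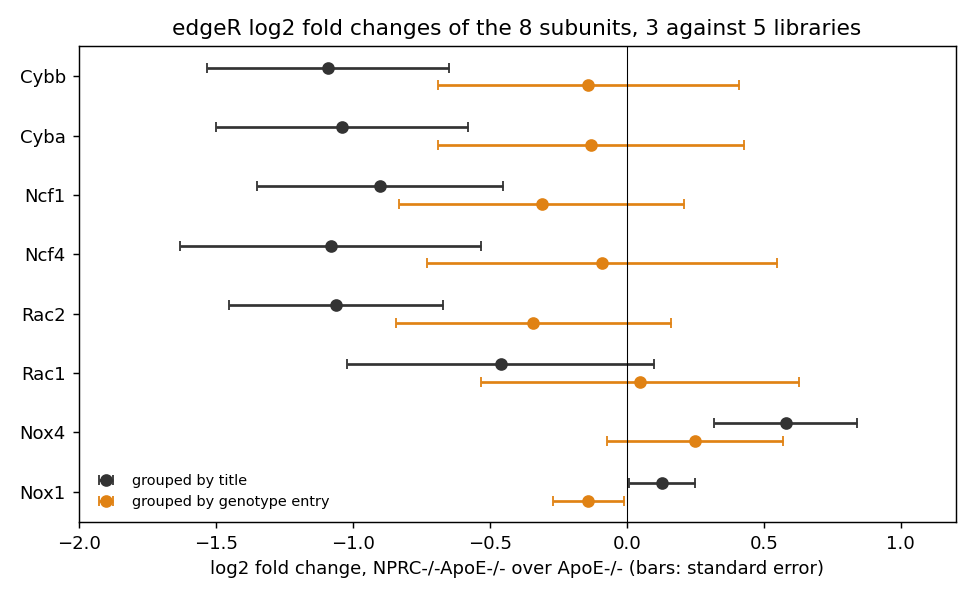
Log2 fold change (horizontal axis) of each subunit, NPRC-/-ApoE-/- over ApoE-/-, with bars of 1 standard error, for the 2 ways of grouping the libraries. By title the 5 phagocyte subunits lie between -1.09 and -0.90, and by genotype entry between -0.34 and -0.09.

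Only 4 libraries had the same genotype in both labels, ApoE-/- 1 to 3 and NPRC-/-ApoE-/- 3. With 1 library in a group no test was made. In these the log2 fold change was -1.81 for Cybb, -1.74 for Ncf1, -1.63 for Ncf4, -1.58 for Rac2, -1.52 for Cyba, -0.91 for Rac1, 0.92 for Nox4 and -0.02 for the Nox1 locus.

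Cybb, Cyba, Ncf1, Ncf4 and Rac2 ordered the libraries in nearly the same way. ApoE-/- 5 was the third lowest library, ApoE-/- 1 the fourth and NPRC-/-ApoE-/- 1 the fifth for each of the 5, and NPRC-/-ApoE-/- 2 and 3 were the lowest 2 for each. Their mean level, as log2 FPKM around each gene's mean, was 0.92 in ApoE-/- 3 and 4, 0.56 in ApoE-/- 2, 0.28 in NPRC-/-ApoE-/- 1, 0.09 in ApoE-/- 1, -0.39 in ApoE-/- 5, and -1.21 and -1.16 in NPRC-/-ApoE-/- 2 and 3. The likeness of a pair was measured as the root mean square difference of the 2 centred log2 CPM profiles over the 8 libraries. It was between 0.14 (Cybb with Ncf1) and 0.30 for the 10 pairs of these 5 genes. Rac1 differed from them by 0.70 to 0.99, and Nox4 by 1.17 to 1.36, and these are descriptions over libraries that all pairs share.

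The loci most like each subunit were found among those with 1 gene name and a mean of at least 5 FPKM (3758 for a member that is itself such a locus). Mpeg1, a pore-forming protein of macrophages, differed from Cybb by 0.062, and Nckap1l, a haematopoietic regulator of actin, by 0.067. Lysosomal Lgmn was nearest to Cyba at 0.063, the receptor Tlr2 to Ncf1 at 0.083, the class I gene H2-T23 to Rac2 at 0.101, and the matrix proteoglycan Lum to Ncf4 at 0.130. The next nearest were Vav1 for Cybb, Ctsb and Gusb for Cyba, Nckap1l and Lgals3 for Ncf1, Hvcn1 and Cotl1 for Ncf4, and Tmem176a and Pld4 for Rac2. Tmem200b was nearest to Nox4 at 0.074, followed by Ncam1 and Celf2. Rnf10 and Zbtb7b were among the 3 nearest to the Nox1 locus, at 0.060 and 0.066. No locus was close to Rac1, whose nearest was the pseudogene Rpl21-ps15 at 0.385, with Mfge8 the third nearest at 0.447.

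Over the libraries, macrophage markers had nearly the order of the phagocyte subunits, and smooth muscle markers, like Nox4, were highest in NPRC-/-ApoE-/- 2 and 3. Fibroblast markers took a course similar to that of the macrophage markers. Their mean centred log2 FPKM was 0.67 in ApoE-/- 3 and -0.90 and -0.56 in NPRC-/-ApoE-/- 2 and 3. The summed FPKM of the 10 macrophage markers was 606 to 1830 in ApoE-/- and 294 to 966 in NPRC-/-ApoE-/- libraries. Most of this sum was Lyz2, at 477.85 to 1543.97 and 219.68 to 807.40 FPKM, which was not itself called. All 10 markers were lower in the fit and 5 at an unadjusted p under 0.05, and 3 of the 10 loci carried more than 1 gene name. The 6 smooth muscle markers summed to 1300 to 1740 and 1670 to 2890 FPKM, most of it from Acta2, and all 6 were higher at that threshold. The 6 endothelial markers, at 82.5 to 93.0 and 76.4 to 90.0 FPKM in sum, held 0 at that threshold. All 6 fibroblast markers were lower in the fit, 2 of them at that threshold, with sums of 506 to 1330 and 282 to 701 FPKM. Of 8 neutrophil markers 4 were tested and 1 was lower, and the defining marker Ly6g was at 0.12 FPKM or less in every library. B cell markers held 1 tested gene of 5 and none called, T cell markers 1 of 5, which was lower, and adipocyte markers 5 of 6 and none called. Over all loci, 7.13% were lower and 6.51% higher at that threshold, and 10434 of 20506 were lower in the fit at any p. The part of these cell type markers in the subunit differences was not tested.

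**Figure D3:**
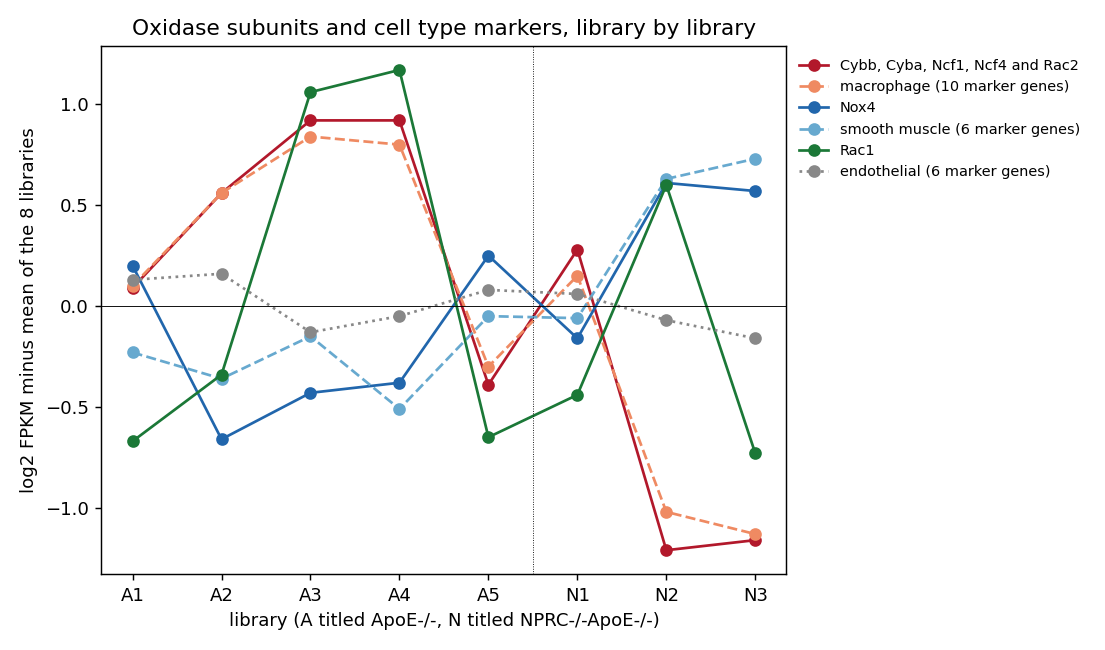
Log2 FPKM minus the mean of the 8 libraries (vertical axis) in each library (horizontal axis), for the mean of Cybb, Cyba, Ncf1, Ncf4 and Rac2, for Nox4 and Rac1, and for the mean of 3 marker lists. Lines only join the points of 1 series. Fibroblast markers, also lowest in N2 and N3, are not drawn. The phagocyte subunits stay close to the macrophage markers, from 0.92 in A3 to -1.21 in N2, Nox4 reaches 0.61 in N2 where the smooth muscle markers reach 0.63, and Rac1 is high in A3, A4 and N2.

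Ratios within a library compare subunits with each other and with Ptprc, the CD45 surface phosphatase of all blood leukocytes. The log2 ratio of Cybb to Nox4 in FPKM was 0.68, 1.73, 1.96, 2.01 and 0.14 in ApoE-/- 1 to 5, and 1.07, -1.09 and -1.27 in NPRC-/-ApoE-/- 1 to 3. Which gene was the higher one rested on the length used for Nox4, implied as about 96.3 kb. Per kb of the longest annotated transcript Nox4 was at a mean of 220.0 CPM and Cybb at 22.8 CPM, and before any division by length Nox4 was the higher in every library. A fixed length shifts all libraries alike, so the choice of length leaves the comparison between groups as it is. How many of the Nox4 reads lay in annotated exons was not tested. The difference of the group means was -1.73, with a two-sided exact permutation p of 0.107 (0.321 adjusted over the 9 ratios tested). The ratio of Nox4 to Cyba, its membrane partner, differed by 1.56 in the other direction (exact permutation p = 0.107).

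Relative to Ptprc, Cybb ranged from 1.13 to 1.93 on the log2 scale over the 8 libraries, a span of 0.80. Its FPKM had a 5.03-fold range, which is a ratio on the linear scale. The mean was 1.47 ± 0.34 (SD, n = 5) in ApoE-/- and 1.68 ± 0.18 (SD, n = 3) in NPRC-/-ApoE-/- aortas, a difference of 0.21 (exact permutation p = 0.357). Relative to Ptprc the differences were 0.40 for Ncf1 (exact permutation p = 0.179), 0.28 for Rac2 (exact permutation p = 0.143) and 0.12 for Ncf4 (exact permutation p = 0.75). All 4 differences were above 0, and with the macrophage list in place of Ptprc those of 3 turned, to -0.12 for Cybb, -0.05 for Rac2 and -0.21 for Ncf4. Ncf1 relative to Cybb differed by 0.19, and Cybb relative to Cyba by -0.18, with exact permutation p-values of 0.143 and 0.286. Rac2 relative to Rac1 differed by -0.81 (exact permutation p = 0.321) and was lowest, at -3.32, in NPRC-/-ApoE-/- 2. All 9 ratios overlapped between the titled groups and 0 had a p under 0.05.

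**Figure D4:**
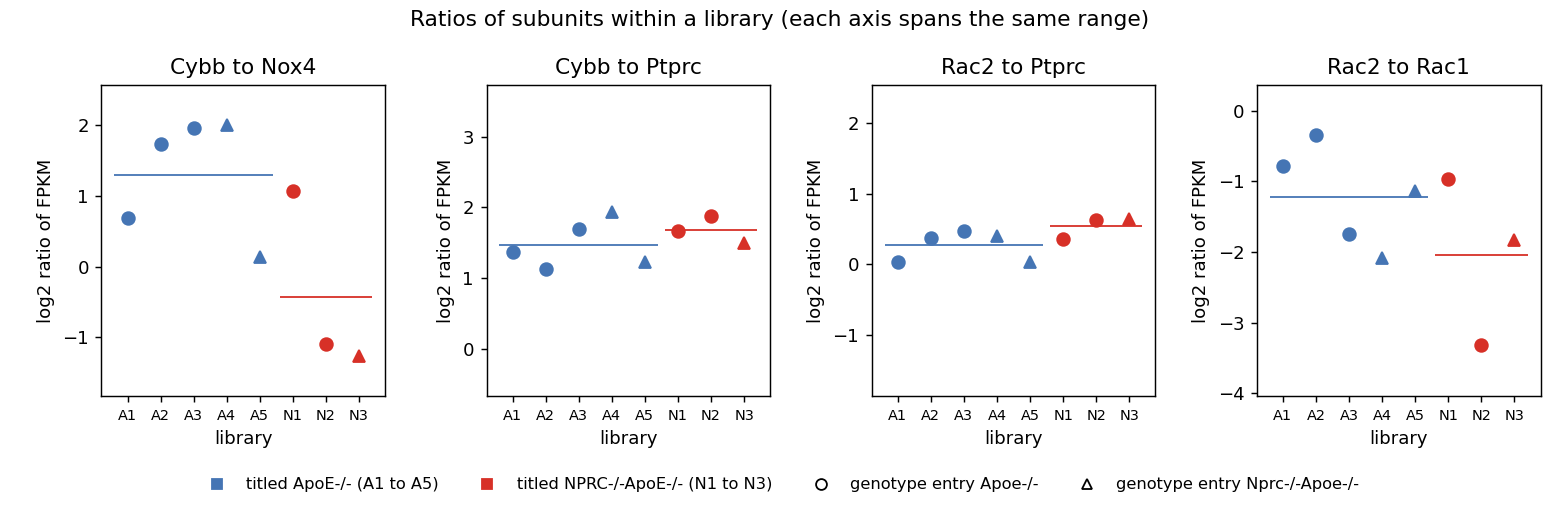
Log2 ratio of FPKM (vertical axes, all of equal span) in each library (horizontal axes) for 4 of the 9 ratios, with lines at the means of the titled groups. Cybb to Nox4 spans 3.28 log2 units and Rac2 to Rac1 2.97, whereas Cybb to Ptprc spans 0.80 and Rac2 to Ptprc 0.60.

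By mean FPKM over the 8 libraries the order was Cyba at 50.5, Rac1 at 19.7, Cybb at 15.3, Nox4 at 8.91, Rac2 at 6.66, Ncf1 at 5.72, Ncf4 at 3.44 and the Nox1 locus at 1.97. Cyba was above Rac1 in 7 of 8 libraries, Rac2 above Ncf1 in 7 and Ncf1 above Ncf4 in 8. Rac1 was above Cybb in only 4 of 8 libraries and Nox4 above Rac2 in 5, so these neighbours were not separated beyond their spread, while Cybb was above Nox4 and Ncf4 above the Nox1 locus in 6 each. The place of Nox4 depended on the length used. With counts divided by the longest annotated transcript, Nox4 came first at 220.0 CPM per kb ahead of Cyba at 86.0, with all reads of the locus, those outside annotated exons included, set against a transcript of 3.92 kb.

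Of 20 other genes of oxidase assembly and control, 13 were tested and 6 were lower at an unadjusted p under 0.05 by title, with 0 higher, in a comparison that called 7.13% of all loci lower. Their median log2 fold change was -0.52, against -0.01 over all loci and -0.97 over the 8 subunits. The proton channel Hvcn1, which balances the charge that NOX2 moves, changed by -1.37 (SE 0.53, edgeR adjusted p = 0.328) and ranged from 1.80 to 12.87 FPKM. Vav1, an exchange factor for Rac, changed by -1.06, Arhgdib, a GDP-dissociation inhibitor of blood cells, by -1.13, Pak1, a kinase that Rac activates, by -0.94, and Nrros, a regulator of NOX2 stability, by -0.78. Cybc1, the chaperone of the gp91phox and p22phox pair, was at -0.24 (edgeR adjusted p = 0.754). Poldip2, a partner of p22phox in NOX4 activity, was at 0.06 and Sh3pxd2a, an organiser of podosomes, at 0.14, and these were, with Arhgdib, the most abundant of the 20. The Sh3pxd2a locus, at a mean of 20.1 FPKM, carried more than 1 gene name.

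Nox3, Duox1, Duox2, Duoxa1, Duoxa2, Noxo1 and Noxa1 were below 1 FPKM in every library. Noxo1 and Noxa1, which organise and activate NOX1, had means of 0.634 and 0.00375 FPKM. By genotype entry 0 of the 13 genes were called in either direction, against 1.31% of loci.

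Of 6 transcription factors known to act on the phagocyte genes, 5 were tested and 4 were lower at the same threshold by title, which 7.13% of all loci passed as lower. Irf8 changed by -1.45 (SE 0.40, edgeR adjusted p = 0.255), Spi1, which encodes PU.1, by -1.13, Runx1 by -1.06 and Elf1 by -0.33. Irf1, the most abundant at a mean of 5.57 FPKM, was at -0.40 and was not called, and Cebpe, a granulocyte factor, was below 1 FPKM in every library. None of the 4 passed after adjustment, and 0 were called by genotype entry, against 1.31% of loci.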

How the data were processed

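Poly(A) RNA of whole aortas was sequenced in 8 libraries. The authors trimmed reads (cutadapt 1.9 and FastQC per the submitters' processing notes, build GRCm38), mapped them with HISAT2 and assembled loci with StringTie. The deposited table gives unnormalized counts per locus and FPKM values that the authors scaled by transcript length and mapped fragments. How counts were made and whether strand was used are not given in the sources used here. All value columns had a sample (0 without).

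The 8 subunits and all gene lists were chosen with earlier results of these data known. Other oxidase genes and transcription factors are named where the unadjusted p was under 0.05 by title, where every library was under 1 FPKM, or where they were among the 3 most abundant of their list. Cybc1, outside this rule, was added after its values were seen. For each subunit the 3 nearest loci are named. Some genes that this rule selects are not reported here.

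The 20506 loci that reached 1 FPKM in 3 or more libraries were fitted with edgeR 4.0.16 in R 4.3.3 (TMM, quasi-likelihood test, Benjamini-Hochberg adjustment over all loci), by title and by genotype entry. "Called" means an unadjusted p under 0.05. Exact permutation tests (scipy 1.17.1, two-sided) were used for single values and for ratios of FPKM without a pseudocount. Alternatives were DESeq2 1.42.0, limma 3.58.1, median-ratio scaling, other filters, a replicate block and leaving out each library. The scripts were tested on simulated data. The methods describe aortas of separate mice, and p-values measure the spread among these libraries, with a biological coefficient of variation of 0.327. The numbers in the titles were not used as pairs in the main fits. The deviations of same-numbered libraries from their group means correlated at -0.314, -0.113 and 0.007. With 3 libraries per group these describe the data only, and pairing was not tested. Promoter windows are from RefSeq (GRCm38.p6).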

Additional observations from a re-analysis of the deposited data

Results flagged for a closer look

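Of 34 groups of 5 values examined for a library far from the others, 1 was found, where chance would give about 1.7. The log2 FPKM of the Nox1 locus among the libraries titled ApoE-/- was highest in ApoE-/- 2, at 1.14, and its gap to the next library was 0.71 of the range of the group. This locus also holds Xkrx and Trmt2b.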

How the results depend on the processing

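By title, 2 of the 8 subunits were called. The count was 0 by genotype entry, 4 with no filter on low values, 6 with DESeq2, 5 with limma on log2(FPKM + 1) and 5 on log2(FPKM + 0.1). It was 1 with the replicate number as a block, against 3 in the same 6 libraries without the block, and the Cybb value with the block was -1.24 and was not called. Leaving out 1 library gave 0 to 6 subunits, 0 without NPRC-/-ApoE-/- 2 or 3, 1 without ApoE-/- 3 or 4, 4 without ApoE-/- 1, and 6 without ApoE-/- 5 or NPRC-/-ApoE-/- 1. The other oxidase genes called numbered 6, but 0 by genotype entry, 3 with a mean of at least 5 FPKM and 1 to 7 with 1 library left out. They were 2 without ApoE-/- 3 or 4 and 1 without NPRC-/-ApoE-/- 2 or 3. The transcription factors called numbered 4, but 0 by genotype entry, 1 with a mean of at least 5 FPKM and 1 to 5 with 1 library left out, 2 without NPRC-/-ApoE-/- 2 and 1 without NPRC-/-ApoE-/- 3. The cause was not tested, and a filter on the mean leaves fewer genes. The share of all loci called was worked out only for edgeR by title and by genotype entry, DESeq2 and limma on log2(FPKM + 1). Counts from the other fits have no such share beside them, so they cannot be read as particular to the subunits.

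By genotype entry the direction turned for Nox1 (-0.14 in edgeR, -0.17 as a difference of mean log2 FPKM), Rac1 (0.05), Ncf1 to Cybb (-0.16), Ncf1 to Ptprc (-0.15) and Rac2 to Ptprc (-0.01). With the macrophage list in place of Ptprc it turned for Cybb (-0.12), Ncf4 (-0.21) and Rac2 (-0.05), and the Ncf4 to Ptprc difference was 0.0 to 0.31 with 1 library left out, the lowest without NPRC-/-ApoE-/- 1. No subunit changed direction in edgeR when 1 library was left out. Median-ratio scaling also called Cyba. With the length of the longest annotated transcript, chosen after seeing the data, Nox4 moved from position 4 to 1. Exact tests of ratios and of single values cannot reach 0.05 with any 1 library left out. Fits at reduced depth were not run.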
